A study of Mus musculus with 2 samples.

Results

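The mesenchyme of the embryonic lung was followed through 31 genes: transcription factors of mesenchymal cells, receptors and surface proteins, matrix and other secreted proteins, and the filament protein vimentin. Collagen, Hox, T-box, Hedgehog pathway and smooth muscle contractile genes were left out of the list by its definition. A gene was read from the probe set (the group of array probes for a transcript) to which the platform annotation gives exactly 1 symbol. All 31 were found, each with 1 probe set, among 19938 genes on the array. The lungs came from mouse embryos at E13.5. One group was labelled wild type and the other Etv4;5 knockout, a loss of the ETS transcription factors Etv4 and Etv5. RNA of 3 samples was pooled per group and hybridised to 1 Affymetrix array. The 2 arrays give no replicates and no test across samples. One label abbreviates the knockout as CKO. The Cre line, the deleted parts, the strain and the sex of the embryos were not given in the sources used here. All values are the authors' deposited values, read as log2 from their range, and all differences are knockout minus wild type.

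Lung mesenchyme surrounds the branching epithelium and exchanges signals with it. The epithelium sends Hedgehog and platelet-derived growth factor (PDGF) ligands to mesenchymal receptors. The mesenchyme returns fibroblast growth factors (FGFs), among them Fgf10, which acts on the epithelium at the bud tips, where Etv4 and Etv5 are expressed in response. Mesenchymal cells give rise to fibroblasts, pericytes and smooth muscle. Their identity rests on factors such as Tcf21, Twist, Prrx1 and Meox proteins.

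Genes were called measured if their higher value reached the median of that array (7.60 in wild type, 7.58 in knockout), as 11045 genes did. The targeted gene Etv4 went from 7.59 in the wild type to 6.96 in the knockout pool, and Etv5 from 11.51 to 11.28 on the brighter of its probe sets. Both Etv4 values lay under the array medians, so Etv4 was not measured by this limit. Where these probes lie relative to the deleted parts is unknown. Sex-linked genes also differed: Xist went from 12.34 in the wild type to 5.74 in the knockout pool, and the Y-linked gene Uty from 8.99 to 9.64. None of the 31 mesenchyme genes lies on X or Y (0 of 31), and the part of embryo sex in their differences was not tested.

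Of the 31 genes, 25 were measured. In the knockout pool 18 of these 25 were lower, 5 were higher and 2 had exactly the same value, with a median difference of -0.08. Among all measured genes 47.0% were lower, 25.7% higher and 27.3% equal, with a median of 0. Differences were small: 1 of the 25 (Twist2) was at least 1.2-fold lower and 0 were at least 1.2-fold higher, against 1.53% and 1.39% of all measured genes. At 1.1-fold, 6 were lower (Twist2, Osr1, Meox2, Tgfbi, Zeb2 and Tcf21) and 2 higher (Prrx1 and Nr2f1), against 7.5% and 5.05% of all measured genes. None reached 1.5-fold in either direction, against 0.163% lower and 0.172% higher of all measured genes. For scale, -0.22 to 0.20 spans the middle 95% of all measured differences. For the 618 measured genes with 2 probe sets, the differences of the pair disagreed by a median of 0.04. Some of these pairs disagreed by 0.18 or more, and most of the 25 mesenchyme differences were smaller than 0.18 in size. Both probe sets of a pair read the same pooled RNA, so these gaps leave out the spread between samples. In bulk tissue, fewer mesenchymal cells and less RNA per cell cannot be told apart.

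Bright genes leaned toward lower values across the arrays, and most of these mesenchyme genes are bright. Among the 5725 genes whose brighter value reached the 75th percentile of its array, 54.3% were lower and 19.4% higher. The 22 mesenchyme genes in that set held 17 lower, 3 higher and 2 equal. The count of lower and higher genes also moved with the scaling of the arrays. When the medians of both arrays were set equal, 16 of the 25 were lower and 9 higher, against 39.3% and 60.7% of all measured genes. Quantile and loess scaling gave the same 16 and 9, with 62.6% and 55.9% of all measured genes higher. Zeb1, Dcn, Meis1 and Mfap2, at or just below a difference of 0 as deposited, were above 0 under all 3 scalings, so their signs carry no direction.

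**Figure D1:**
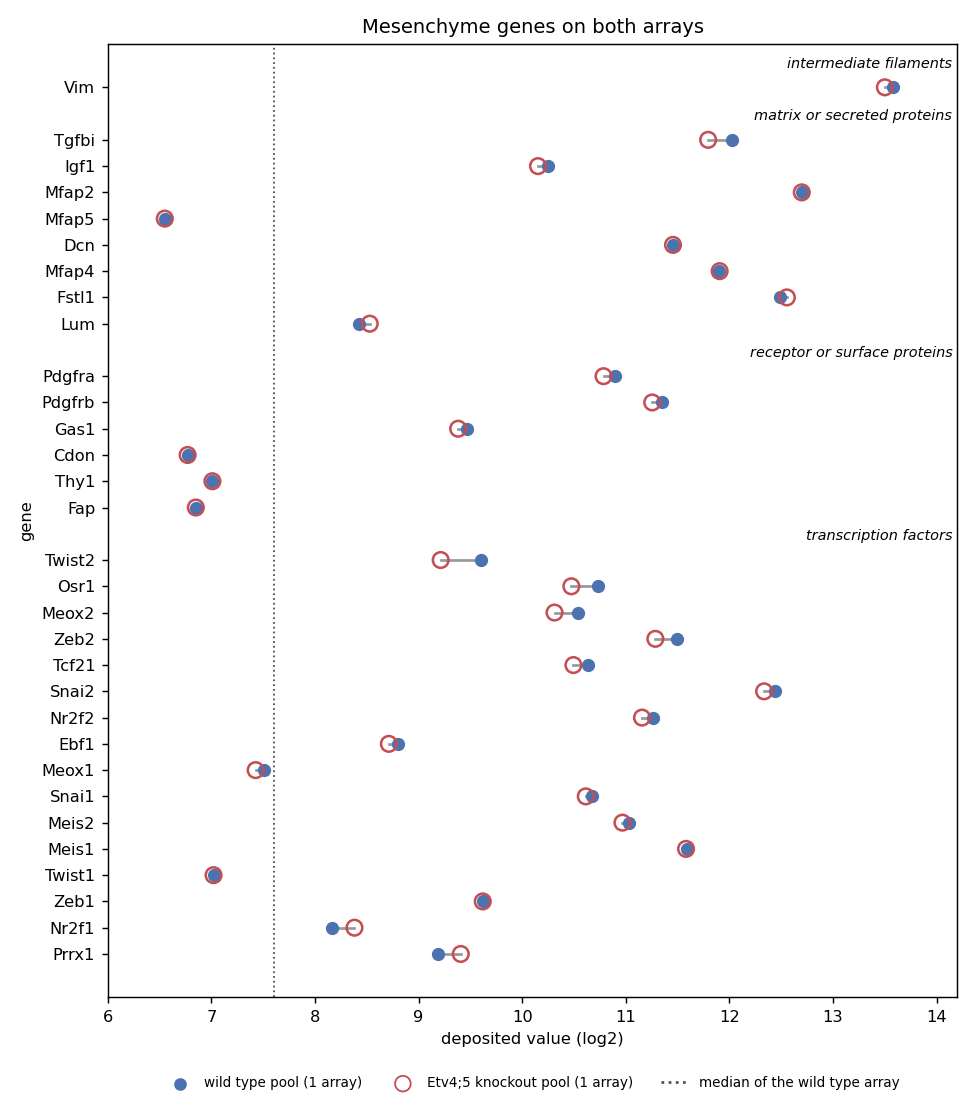
Deposited log2 values (horizontal axis) of the 31 mesenchyme genes, ordered by role and by difference. A filled blue point is the wild type array and an open red circle the knockout array, 1 pooled array each, so there are no error bars. The dotted line is the wild type array's median (7.60), and Twist2 shows the widest gap, from 9.61 to 9.21.

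**Figure D2:**
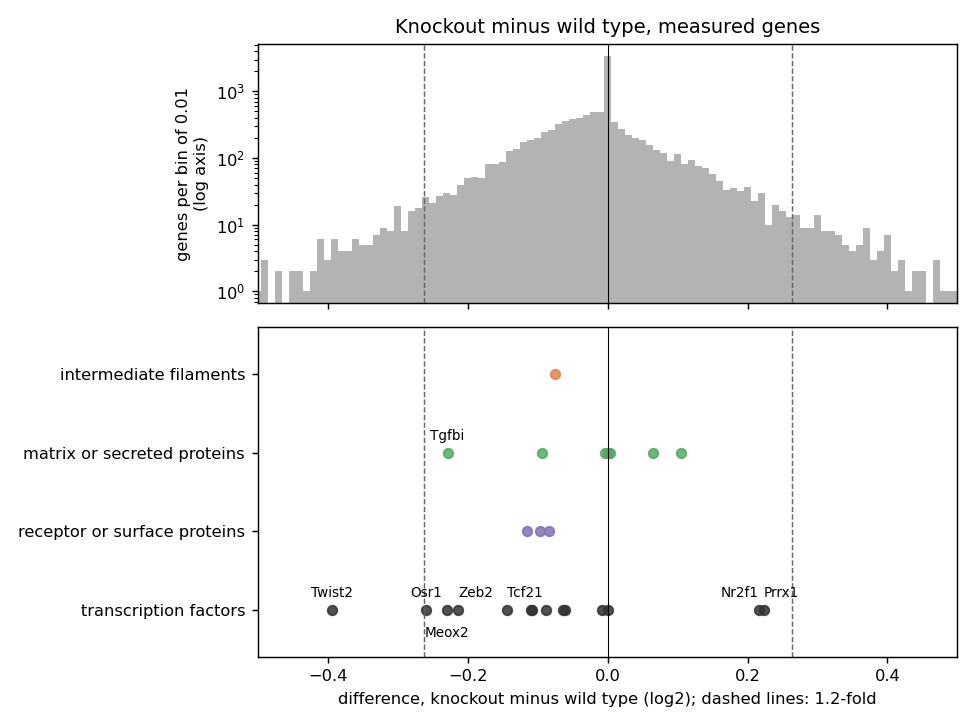
The upper panel counts measured genes by their log2 difference, knockout minus wild type, in bins of 0.01 on a log axis, within -0.5 to 0.5. The lower panel places each of the 25 measured mesenchyme genes on the same axis, 1 point per gene by role, with names for those at least 1.1-fold apart; Twist2 alone lies beyond a dashed 1.2-fold line.

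Of the 14 measured transcription factors 11 were lower in the knockout pool, 2 higher and 1 equal, with a median of -0.10, against 47.0% of all measured genes lower and 54.3% of the brighter set. Under the 3 other scalings Meis1 and Zeb1 moved above 0, which gave 10 lower and 4 higher. All measured genes then had 37.2% to 44.1% lower and 55.9% to 62.6% higher. Twist2, a basic helix-loop-helix (bHLH) factor of mesenchymal progenitors also known as Dermo1, stood at 9.61 in the wild type pool against 9.21 in the knockout pool (-0.39, 1.31-fold). It held rank 51 from the lowest of the 11045 differences. Osr1, a zinc finger factor of early foregut mesenchyme, was at 10.73 and 10.47, a difference of -0.26 that stayed just short of 1.2-fold. Meox2, a homeobox factor of mesoderm, was at 10.54 and 10.31 (-0.23). Zeb2, a zinc finger repressor of epithelial genes, was at 11.50 and 11.28 (-0.21). Tcf21, a bHLH factor required for lung mesenchyme to support branching, was at 10.64 and 10.49 (-0.14). These 5 bHLH, zinc finger and homeobox factors were each lower by at least 1.1-fold, although Tcf21 missed that size under all 3 other scalings.

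The other lower factors differed by less. Snai2 and Snai1, zinc finger repressors known from epithelial to mesenchymal transitions, both had slightly lower values. Snai2 went from 12.44 to 12.33 (-0.11) and Snai1 from 10.68 to 10.61 (-0.06). The orphan nuclear receptor gene Nr2f2 was at 11.26 and 11.16 (-0.11). Ebf1, a factor of stromal and B cell lineages, was at 8.80 and 8.71 (-0.09). The TALE homeobox factors Meis2 and Meis1, partners of Hox and Pbx proteins, were close to equal. Meis2 was at 11.03 and 10.97 (-0.06) and Meis1 at 11.59 and 11.58 (-0.0073). All these sizes lie inside the central range of measured genes.

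Some factors went against this direction. Prrx1, a paired-related homeobox factor of mesenchyme, stood at 9.18 in the wild type and 9.41 in the knockout pool (0.22), rank 215 from the highest. Nr2f1, the relative of Nr2f2, was at 8.16 and 8.38, also a difference of 0.22 (rank 240). Both were just above the central range of measured genes. Zeb1, the relative of Zeb2, was listed at 9.62 on both arrays.

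Related genes were also set side by side. Of 9 pairs of related genes among the 31, 6 had both members measured. In 3 of these both were lower (Snai1 with Snai2, Meis1 with Meis2, Pdgfra with Pdgfrb), in 1 the directions were opposite (Nr2f1 with Nr2f2), and in 2 a gene was equal on both arrays (Zeb1 beside Zeb2, Dcn beside Lum). The Nr2f genes were furthest apart among these 6 pairs, by 0.32 on the log2 scale, and the Pdgf receptors closest, by 0.02. The Meis pair counts as lower only with values as deposited, since Meis1 turned above 0 with scaling, as did Zeb1 and Dcn. Of all measured genes 47.0% were lower, 25.7% higher and 27.3% equal, and 6 pairs are too few to set against these shares. Twist1, the bHLH relative of Twist2, was at 7.02 on both arrays and not measured, so the Twist genes were not compared. Each pair compares differences of separate probe sets, 1 per gene, and no interval can be given for the gaps.

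**Figure D3:**
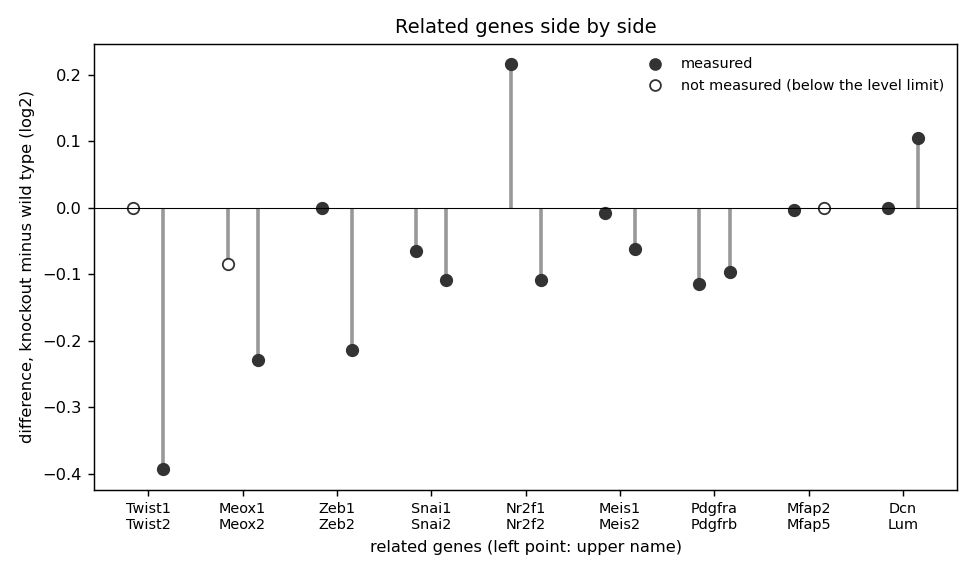
Log2 difference, knockout minus wild type (vertical axis), for 9 pairs of related genes, 1 point per gene with the upper name on the left. Filled points are measured genes and open points genes below the level limit; each value is a single difference between 2 arrays, without error bars. Nr2f1 (0.22) and Nr2f2 (-0.11) lie on opposite sides of 0.

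Promoter windows from RefSeq (assembly GRCm38.p6, 250 bases before to 50 after a gene's start) were held for 20 of the 31 genes, 26 windows in all. They are shown for the factors with the lowest and the highest difference, Twist2 and Prrx1, and for the only genes among these 20 with a searched motif, Meis1 and Snai1. The ETS site searched was CCGGAAG, 1 form of the sequence that Etv4, Etv5 and many other ETS factors bind. The E-box bound by Zeb and Snail repressors was CAGGTG. Windows without these exact letters may hold other forms of either site. Both strands were read, and the motifs cannot overlap. Only the 250 bases before the start are printed, 5′ to 3′ on the gene's strand, with motif letters in capitals. Twist2 lies on the plus strand at chr1:91801211-91801460, Prrx1 on the minus strand at chr1:163313651-163313900, Meis1 on the minus strand at chr11:19018970-19019219, and Snai1 on the plus strand at chr2:167537945-167538194.
Twist2: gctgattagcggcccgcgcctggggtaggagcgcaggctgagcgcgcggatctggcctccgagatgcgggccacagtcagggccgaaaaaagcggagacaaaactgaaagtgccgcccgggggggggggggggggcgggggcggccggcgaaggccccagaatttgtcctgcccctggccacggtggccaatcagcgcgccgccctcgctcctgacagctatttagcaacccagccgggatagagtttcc
Prrx1: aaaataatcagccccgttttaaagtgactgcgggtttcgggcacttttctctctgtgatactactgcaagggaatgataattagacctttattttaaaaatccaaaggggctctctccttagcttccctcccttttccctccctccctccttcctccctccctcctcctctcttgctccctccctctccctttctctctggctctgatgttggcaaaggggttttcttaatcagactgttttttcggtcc
Meis1: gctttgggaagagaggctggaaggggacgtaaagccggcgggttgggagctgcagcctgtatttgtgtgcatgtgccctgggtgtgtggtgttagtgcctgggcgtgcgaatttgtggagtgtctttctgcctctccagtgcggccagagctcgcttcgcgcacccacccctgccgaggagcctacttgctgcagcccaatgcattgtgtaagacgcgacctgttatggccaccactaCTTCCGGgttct
Snai1: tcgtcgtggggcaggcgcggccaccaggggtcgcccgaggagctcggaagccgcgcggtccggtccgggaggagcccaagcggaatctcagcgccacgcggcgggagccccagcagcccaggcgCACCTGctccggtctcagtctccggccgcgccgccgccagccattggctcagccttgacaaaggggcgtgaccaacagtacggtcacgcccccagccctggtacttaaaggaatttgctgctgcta
The capitals in Meis1 are the ETS site on the opposite strand, beginning 12 bases before the start, and those in Snai1 are the E-box on the opposite strand, 126 bases before it. The ETS site was found in 1 of the 26 windows (1 of the 20 genes), against 8.86% of all 32851 promoter windows. The E-box was also found in 1 of the 26 windows (1 of the 20 genes), against 20.2% of all windows. Meis1, the gene with the ETS site, differed by -0.0073, while the Twist2 and Prrx1 windows hold neither motif. A match to these letters is a description and not a binding site, and the windows say nothing about more distant sequence.

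Receptors and surface proteins were lower wherever they were measured, by small amounts: 3 of 3, with a median of -0.10. Of all measured genes 47.0% were lower, and 3 genes are too few to set against that share. Pdgfra, the receptor through which epithelial PDGF-A reaches future myofibroblasts, stood at 10.90 in the wild type pool and 10.78 in the knockout pool (-0.11). Pdgfrb, the receptor of pericytes and fibroblasts, was at 11.35 and 11.25 (-0.10). Gas1, a membrane-anchored co-receptor for Hedgehog ligands, was at 9.46 and 9.38 (-0.08). None of the 3 reached 1.1-fold. Cdon, another Hedgehog co-receptor, Thy1, a fibroblast surface glycoprotein, and Fap, a protease of activated fibroblasts, were not measured. They were listed at 6.77, 7.01 and 6.85, each with the same value on both arrays. With these 3 included the median of the receptor group was -0.04.

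Among PDGF pathway genes beside these receptors, 6 of 7 were measured, 2 lower, 1 higher and 3 equal, and none reached 1.2-fold. The shares of all measured genes were 47.0% lower, 25.7% higher and 27.3% equal. Pdgfd, a ligand of Pdgfrb, was at 7.64 and 7.39 (-0.26), with the knockout value under the array median. Pdgfa, the epithelial ligand of Pdgfra, was at 9.92 and 9.80 (-0.12). Both the ligand Pdgfa and its receptor Pdgfra were thus a little lower in the knockout pool, within the central range of all genes.

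Matrix and secreted proteins were split evenly, with 3 lower, 3 higher and 1 equal of 7 measured and a median of 0. The shares of all measured genes were 47.0% lower and 25.7% higher. Under the 3 other scalings Dcn and Mfap2 joined the higher genes, when 55.9% to 62.6% of all measured genes were higher. Tgfbi, a secreted matrix protein induced by TGF-beta, was at 12.02 in the wild type and 11.79 in the knockout pool (-0.23), rank 255 from the lowest. Igf1, a growth factor made by mesenchyme, was at 10.25 and 10.15 (-0.09). Lum, a small leucine-rich proteoglycan that organises collagen fibrils, was at 8.42 and 8.53 (0.10). Dcn, its relative and direct chromosomal neighbour among protein-coding genes (0 genes between them on chromosome 10), was at 11.45 on both arrays. Fstl1, a secreted glycoprotein that binds BMP ligands, was at 12.49 and 12.55 (0.06).

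The microfibril genes differed little between the arrays. Mfap2, which encodes a fibrillin-binding glycoprotein, was at 12.70 on both arrays to 2 decimals (-0.0032). Mfap4, an elastic fibre protein, was at 11.90 on both (0.0041). Mfap5, the relative of Mfap2, was not measured and was listed at 6.55 on both. Vim, the intermediate filament protein of mesenchymal cells, was at 13.5751 and 13.4995 (-0.08). The matrix group and the transcription factors thus had medians of 0 and -0.10; with 2 arrays the gap between them has no test.

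In the IGF pathway outside Igf1, 12 of 14 genes were measured, of which 8 were lower, 2 higher and 2 equal, with a median of -0.05. The shares of all measured genes were 47.0% lower and 25.7% higher. Igfbp2, an IGF binding protein, was at 9.54 and 9.24 (-0.30), the only measured one past 1.2-fold. The receptor Igf1r was at 10.98 and 10.82 (-0.16), and the ligand Igf2 at 13.14 and 13.16 (0.01). Igf1 and Igf1r were named together after their values were seen.

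Of 22 relatives of the 31 genes, 15 were measured, of which 5 were lower, 6 higher and 4 equal, with a median of 0, beside 47.0% lower and 25.7% higher among all measured genes. Under the 3 other scalings 5 relatives were lower and 10 higher. All measured genes then had 37.2% to 44.1% lower and 55.9% to 62.6% higher. Fmod, a leucine-rich proteoglycan like Dcn and Lum, was lower at 11.35 and 11.07 (-0.28). Boc, the Hedgehog co-receptor related to Cdon, was at 10.61 and 10.74 (0.13), and Prrx2 at 8.25 on both arrays. Partners of the factors, such as the E proteins that pair with Twist and Tcf21 and the Pbx proteins that pair with Meis, had 14 measured of 17. Of these 8 were lower, 2 higher and 4 equal (median -0.02), beside 47.0% lower and 25.7% higher among all measured genes. Id2, which binds E proteins and blocks bHLH dimers, differed most, from 12.47 to 12.17 (-0.31), and it is also expressed in distal lung epithelium. The Pbx genes Pbx2, Pbx3 and Pbx4 differed by -0.15, -0.10 and 0.10. Of the E protein genes, Tcf12 and Tcf4 differed by -0.12 and -0.08, and Tcf3 was equal on both arrays.

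Of the 31 genes, 6 lay below the level limit: Twist1, Meox1, Thy1, Fap, Cdon and Mfap5. Exactly equal values were listed for 5 of these 6 (83.3%), against 41.1% of all genes below the limit, and for 2 of the 25 measured genes (8%), against 27.3%. The sources used here do not explain such exact ties. The remaining dim gene, Meox1, the homeobox relative of Meox2, was at 7.51 and 7.43 (-0.08). Meox1 is the next protein-coding gene to Etv4 on chromosome 11, with 0 genes between them in the RefSeq gene table. The other mesenchyme genes on the chromosomes of Etv4 and Etv5 were at least 122 protein-coding genes away.

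Markers of other cell types were set beside these values, since smooth muscle, blood and epithelium share the tissue. The shares of all measured genes to set beside each marker list are 47.0% lower and 25.7% higher. Among genes past the 75th percentile they are 54.3% and 19.4%, and all smooth muscle, endothelial and epithelial markers are that bright. All 7 smooth muscle markers, of which Des is also among the relatives above, were measured and lower, with a median of -0.22, and their summed linear signal in knockout was 0.906 of wild type. Myocd and Cnn1 differed by -0.39 and -0.31. The summed signal of the 31 mesenchyme genes was 0.952 of wild type, and that of all genes 0.987. Endothelial markers were nearer to that overall value, with 6 of 8 lower, 2 equal, a median of -0.01 and a summed ratio of 0.982 (Pecam1 at -0.08, Tek at -0.08).

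Lung epithelial markers went the other way in number, with 7 of 10 higher, a median of 0.10 and a summed ratio of 1.02. Krt18 and Krt8 differed by 0.47 and 0.33, while Sftpc and Sox9 differed by -1.12 and -0.32. Summed ratios took every gene of a list found on the array, measured or not. Mesothelial markers had 3 of 5 measured genes higher, 1 lower and 1 equal (median 0.06), with a ratio of 1.08 over 6 genes. Krt19, a keratin gene like the epithelial markers Krt18 and Krt8, differed by 0.45, while Upk3b stood at -0.09 and Wt1 at 0. The mesothelial ratio rests mainly on Krt19. Erythroid markers had 3 of 3 measured lower (median -0.25, Slc4a1 at -0.26 and Hba-x at -0.25), with a ratio of 0.861 over 6 genes. Leukocyte markers had 4 of 5 lower (median -0.10, Mrc1 at -0.17 and Csf1r at -0.15), with a ratio of 0.936 over 8 genes. Cartilage markers had 3 of 4 lower (median -0.25), with a ratio of 0.832 over 6 genes. Cnmd was at 7.78 and 7.37 (-0.41), with the knockout value under the array median. Sox9, also counted as epithelial, stood at -0.32, and as the brightest cartilage marker it weighs most in that ratio. Neural markers had 1 measured gene, Ret at 0.14. The lowest values of any probe set were 2.72 in wild type and 2.69 in knockout. A marker value above 0 therefore does not show that its cell type was present. The part of tissue makeup in the mesenchyme values was not tested.

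**Figure D4:**
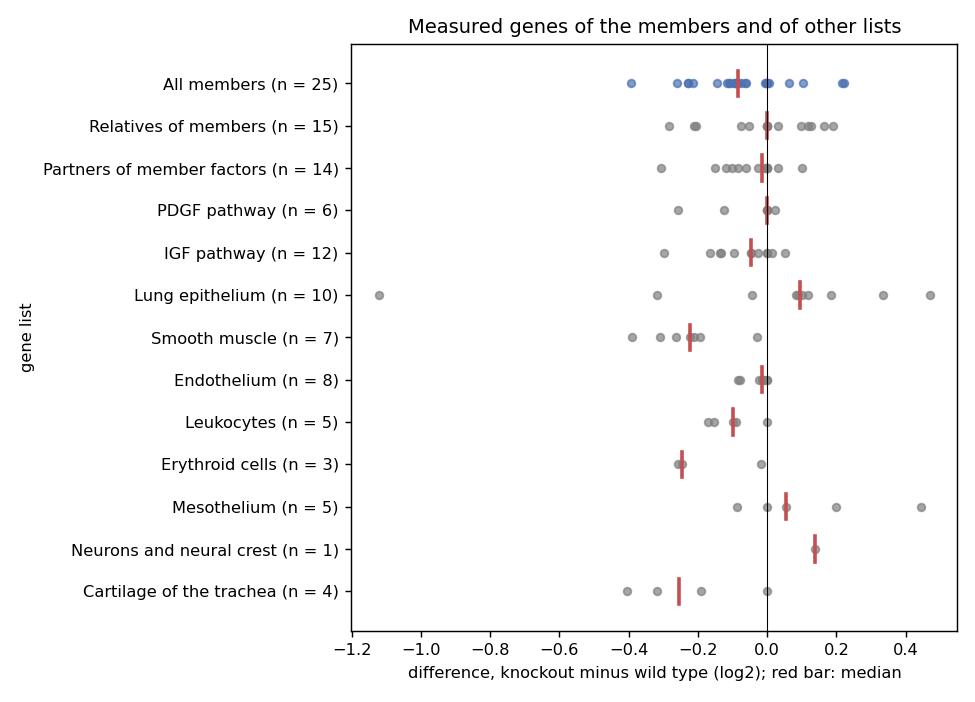
Log2 difference, knockout minus wild type (horizontal axis), of each measured gene in the mesenchyme list ("All members", blue) and in 12 other lists (grey), with a red bar at each list's median. The mesenchyme median (-0.08) lies between those of smooth muscle (-0.22) and endothelium (-0.01); a point is 1 gene on 2 arrays, without error bars.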

How the data were processed

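Total RNA of embryonic mouse lung, pooled from 3 samples per group per the series' design text, was labelled with biotin and read on Affymetrix arrays per the labels' protocols. The authors' deposited values, 1 per probe set and array (35557 probe sets, 2.72 to 14.4 in wild type and 2.69 to 14.4 in knockout), were taken as log2 from their range; the log base, summary method and normalization were not given in the sources used here. Names came from the platform annotation: 21789 probe sets had 1 symbol, 1621 several and 12147 none. For each gene the probe set with the highest mean was used, with no floor or offset.

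No test or p-value was computed, as each group has 1 array. The genes, lists and fold sizes were chosen with earlier results of these data known. All 31 mesenchyme genes were named; from every other list, measured genes at least 1.2-fold apart (at most 4) or otherwise the 2 largest. The Pbx and E protein genes, Boc, Prrx2, Igf1r, Igf2, Upk3b and Wt1 were named after their values were seen. Steps were tested on simulated data over 19938 genes with 200 known differences, of which 100% were recovered under each scaling. The simulated knockout values were the wild type values plus these differences and a constant shift, with no noise. Full recovery therefore checks only the arithmetic of the steps. How small a difference can be detected with 1 array per group was not tested. Gene order came from the RefSeq table of GRCm38.p6. Alternatives were equal medians, quantile and loess (span 0.3) scaling, the mean over probe sets, no filter, a 75th percentile filter, a floor at the 25th percentile, and 1.1-fold and 1.5-fold sizes. Python 3.11.15, numpy 2.4.6, pandas 2.3.3, statsmodels 0.14.6 and matplotlib 3.10.9 were used.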

Additional observations from a re-analysis of the deposited data

How the results depend on the processing

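No paired analysis was possible because each group has 1 array, and no array could be left out. Without replicates, a median was called moved when it shifted by at least 0.0429 on the log2 scale, the median disagreement of probe sets of a gene. The probe set mean and the floor could not move any of the measured genes, which have 1 probe set each and lie above the floor. Over the other 5 settings (3 scalings and 2 filters) the median of the mesenchyme genes stayed between -0.09 and -0.06, that of the transcription factors between -0.11 and -0.08, and the count of lower genes between 16 and 19. The count of higher genes (5) was 9 under equal medians, 9 under quantile and 9 under loess scaling, and 3 among genes past the 75th percentile. The receptor median was -0.0418 with no filter, which adds 3 dim genes with equal values. The count of genes at least 1.2-fold lower (1) became 6 at 1.1-fold, or 0 at 1.5-fold. The matching count of higher genes (0) became 2 at 1.1-fold. The matrix median lay between -0.0016 and 0.02, so its sign carries no direction. Equal medians moved the median of all measured genes by 0.02. Twist2 stayed between -0.39 and -0.37, Osr1 between -0.26 and -0.23, and Prrx1 between 0.22 and 0.25 over the deposited values and the 3 scalings, the only settings that could move a single gene here. Dim signal limits 6 of the 31 genes, and 2 arrays limit all of them.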

Other observations

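The microRNAs of the miR-200 family are known to repress Zeb1 and Zeb2 in epithelial cells. Probe sets for 4 of their genes were looked up after the values of Zeb1 and Zeb2 were seen, and no other gene of the family was looked up. Mir200b stood at 6.88 in the wild type and 7.05 in the knockout pool (0.17), Mir141 at 5.22 and 5.33 (0.11), Mir200c at 6.46 and 6.55 (0.09), and Mir200a at 6.86 on both arrays. All 4 lay below the array medians, so these values describe dim probe sets and do not measure the mature microRNAs. Zeb2 stood at -0.21 and Zeb1 at 0 in the same comparison, and a link between them and the microRNA genes was not tested.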
